A study of Mus musculus with 4 samples.

Results

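The genes described here encode proteins of the mitochondrial ribosome in mouse granulocytes, in progenitor cells of the blood (HPC) and in its stem cells of long-term (LT-HSC) and short-term (ST-HSC) repopulating ability. A probe set, the group of array probes aimed at 1 transcript, was taken in when its annotation named a single gene whose symbol began with Mrpl or Mrps and a digit. This gave 76 genes with 156 probe sets, out of 18193 genes and 45037 probe sets on the arrays. The study measured each cell type on 1 single-colour Affymetrix array to check the profile of the cells used as nuclear donors for cloning. Granulocytes were bone marrow cells of high granularity and strong Gr-1 staining, with a purity of 99.4% by morphology. HPC were positive for c-Kit, free of lineage antigens and negative for Sca-1. LT-HSC were positive for c-Kit and Sca-1, free of lineage antigens and negative for CD34, and ST-HSC differed from them in being CD34 positive. No strain, age or sex is stated for any group, and no treatment beyond the sort. Cells of all 4 groups were picked by morphology after thawing and packed, 50 or 100 at a time, into emptied egg coats. From each type, the RNA of 50 to 200 cells was amplified linearly in 2 rounds.

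Mitochondria carry a small genome of their own, and its messenger RNAs are read inside the organelle by a ribosome that is separate from the cytosolic one. The proteins made there are core subunits of the respiratory chain and of the ATP synthase. The RNAs of this ribosome come from mitochondrial DNA, whereas its proteins are all encoded in the nucleus, made in the cytosol and imported. The symbols beginning with Mrpl name proteins of the large subunit, which joins amino acids, and those beginning with Mrps name proteins of the small subunit, which reads the messenger. Some members descend from bacterial ribosomal proteins and others are found in mitochondrial ribosomes without a bacterial counterpart. Mature granulocytes have few mitochondria and live mainly on glycolysis, and stem cells of the blood are also known for low mitochondrial activity.

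The members comprised 49 genes of the large subunit, 26 of the small subunit and Mrps36, which bears the name but is now known as an adaptor of the 2-oxoglutarate dehydrogenase complex. Mrps18a and Mrps30 were counted with the large subunit, where structures of mammalian mitochondrial ribosomes place their products. By origin, 47 members had a bacterial counterpart and 28 were particular to mitochondria. All 76 were found in the RefSeq annotation under the same symbol, where 78 protein-coding genes fit the naming rule. The other 2, Mrpl30 and Mrpl53, share their probe sets with a second symbol and were not members. Of the members, 34 had 1 probe set and 42 had several, up to 8. The probe set of highest mean log2 signal stood for its gene, and 11 of these carry a suffix (_x_ or _s_) that marks probes able to hybridise to other transcripts. RefSeq also lists 6 pseudogenes of these genes, whose transcripts the probes may not tell from those of the genes.

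Signals are linear intensities, and the 2% trimmed mean of each array was 500.00. Signals under a floor of 120, the median signal of the 4 arrays together, were treated as unmeasured and set to it before log2 was taken. Members above the floor numbered 66 in granulocytes and 76 in each of HPC, LT-HSC and ST-HSC, so all 10 members that fell under the floor did so in granulocytes alone. The median member signal was 499 in granulocytes, 1039 in LT-HSC, 1029 in ST-HSC and 1150 in HPC. The quartiles were 293 and 1232 in granulocytes, 786 and 2369 in HPC, 619 and 2048 in LT-HSC and 677 and 2027 in ST-HSC. Member signals thus ran lower on the granulocyte array than on the other 3, which had medians close to each other. The dimmest member was Mrps28 in granulocytes, at 6.10, and the brightest Mrpl39 in HPC, at 9052. Probe sets differ in how well they hybridise, so signals are compared here between arrays and not between genes.

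**Figure D1:**
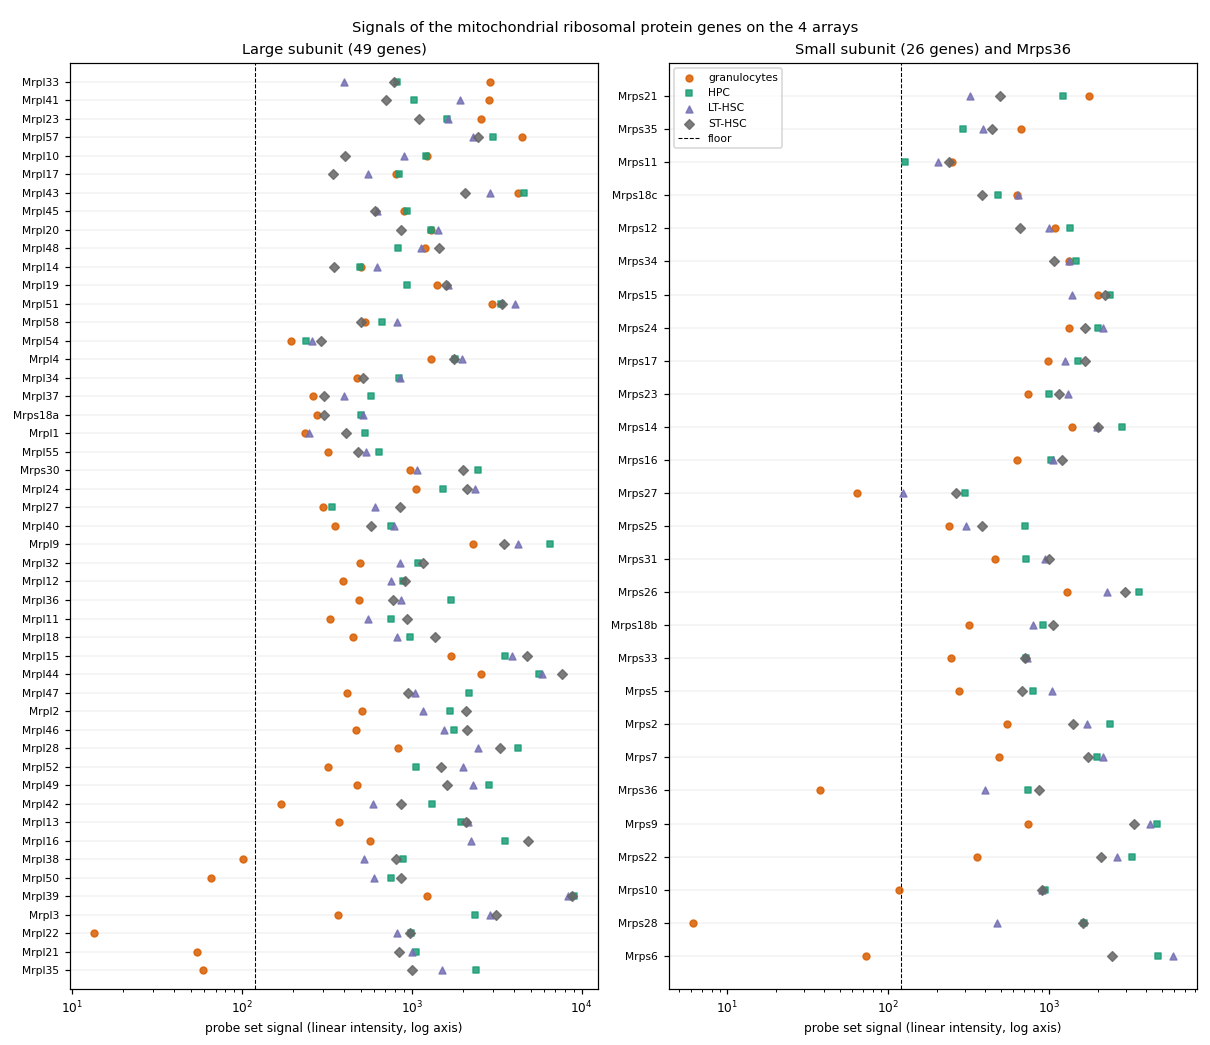
Signal of each of the 76 members on the granulocyte, HPC, LT-HSC and ST-HSC arrays (x axis, linear intensity on a log axis), with genes ordered down the page by the difference between granulocytes and the mean of the other 3 arrays. The dashed line is the floor of 120. Granulocyte points lie to the left of the other 3 for 56 members and to the right for 8, with Mrpl33 at the top and Mrpl35 and Mrps6 at the bottom of their panels. Among the 7289 genes with a mean signal at or above 432, granulocytes had the lowest signal for 49.7% and the highest for 31.3%.

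No group has a replicate array, so no test was made. The spread between probe sets of 1 gene was the only measure of error. Only probe sets above the floor on all arrays of a comparison entered this spread, which thus leaves out differences read at the floor. Among members its SD was 0.60 log2 units for granulocytes against the other 3 (18 genes), 0.40 for HPC against the stem cell arrays (23 genes) and 0.38 between the LT-HSC and ST-HSC arrays (25 genes). Over all genes it was 0.85, 0.57 and 0.64. It covers neither sorting nor amplification, so a difference called here is one between arrays. The Gapdh 3′ to 5′ signal ratio, which grows as the far end of transcripts is lost, was 12.4 in granulocytes, 14.9 in LT-HSC, 12.4 in ST-HSC and 17.8 in HPC, and the beta actin ratio was 5.75 in granulocytes and 12.2 to 16.1 elsewhere. The 18S ribosomal RNA controls set LT-HSC furthest apart, with 16644 at the 5′ end, against 4677 in granulocytes, 508 in HPC and 1333 in ST-HSC, and 11235 in the middle, against 1929 in granulocytes, 769 in HPC and 712 in ST-HSC. The brightest control for an absent bacterial transcript had 138 in granulocytes, just above the floor, and 52.5 to 90.3 elsewhere. Of the markers listed, 8 of 8 for granulocytes were above the floor in granulocytes, 5 of 5 for progenitors in HPC and 10 of 10 for stem cells in both LT-HSC and ST-HSC. Passing the floor did not separate HPC from stem cells. In HPC 8 of the 10 stem cell markers passed it, and in ST-HSC 5 of 5 progenitor markers. Cd34, whose surface protein LT-HSC were sorted to lack, had 2384 in LT-HSC, against 9778 in ST-HSC, 5190 in HPC and 17.2 in granulocytes. The LT-HSC array also held signal of genes of cells that its gate was set to exclude. Its 8 granulocyte markers summed to 19416, with 5 above the floor, against 367732 in granulocytes, 566 in HPC and 634 in ST-HSC. S100a8, S100a9, Ngp, Camp and Ltf were the 5, whereas Mmp8, Mmp9 and Cxcr2 lay under the floor. Its 4 B-lineage markers summed to 12787, against 886 in granulocytes, 6513 in HPC and 488 in ST-HSC. In granulocytes 5 cumulus cell markers summed to 8398, against 205 to 701 elsewhere, with Amh under the floor on each array. Inhba made up 6566 of this sum, had 459 in LT-HSC and lay under the floor in HPC and ST-HSC. The 6 oocyte markers summed to 989 in granulocytes, 673 in LT-HSC, 464 in ST-HSC and 404 in HPC. Which cells the signal of these markers came from was not tested. The 4 monocyte markers summed to 15948 in granulocytes, 894 in LT-HSC, 1078 in ST-HSC and 13104 in HPC. Csf1r, which progenitors also carry, made up 13089 of this sum in granulocytes and 11928 in HPC, and Mrc1 lay under the floor in granulocytes, at 117. Cd68 and Adgre1 were highest in granulocytes. Cd68 had 1640 there, against 286 to 750 elsewhere, and Adgre1 had 1102, against 140 to 298. The part of these signals in the results below was not tested. Granulocyte counts without the LT-HSC array are given for the members, their subunits and the pathway lists.

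The granulocyte array was set against the other 3 to see how the mature cells differ from the stem and progenitor cells. Most mitochondrial ribosomal protein genes had less signal in granulocytes. A gene was called lower or higher when it differed at least 2-fold from each of the other 3 arrays, and 29 of the 76 members were lower and 1, Mrpl33, was higher. The background over all 18193 genes was 12.7% lower and 8.90% higher. At 4-fold, 12 members were lower and 0 higher, against backgrounds of 5.34% and 2.86%. Taken array by array, 44 members were at least 2-fold lower in granulocytes than in HPC, 33 than in LT-HSC and 38 than in ST-HSC, and 3, 2 and 7 were higher. Over all genes, 19.2% were lower in granulocytes than in HPC, 19.9% than in LT-HSC and 19.3% than in ST-HSC, and 13.3%, 13.9% and 14.4% were higher. Granulocytes were below each other array for 56 members, above each for 8 and between them for 12. Over all 18193 genes they were below each for 4646 and above each for 5482, where genes level at the floor count as neither. The median log2 difference from the mean of the other 3 arrays was -0.92 over the members (quartiles -1.98 and -0.19, SD 1.32 between genes), and 0.00 over all genes. Each array read the RNA of many cells together, so less RNA of these genes per cell and fewer cells that carry it cannot be told apart. The arrays also share 1 trimmed mean, so signals are relative to the whole array and amounts per cell were not measured.

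Members are brighter than most genes, and bright genes as a whole were more often lower in granulocytes. Among the 7289 genes with a mean signal at or above the pooled 75th percentile (432), 28.3% were at least 2-fold lower in granulocytes and 13.7% higher, with a median of -0.40. Of the 69 members in that range 29 were lower and 1 higher, with a median of -1.05. At 4-fold 17.4% of these 69 members were lower and 0 higher, against 13.3% and 5.89% of brighter genes. Array by array, 58.0% of them were at least 2-fold lower in granulocytes than in HPC, 47.8% than in LT-HSC and 53.6% than in ST-HSC. Among brighter genes these shares were 37.5%, 36.5% and 37.0%. Granulocytes were below each other array for 50 of these 69 members and above each for 7, against 3611 and 2279 of the 7289 brighter genes. The members thus stood further to the low side than bright genes on each measure, by a smaller margin than beside all genes. Without the LT-HSC array, 36 members were lower and 2 higher, against 14.6% and 10.4% of all genes, and the median was -1.09. At 4-fold, 16 members were then lower and 0 higher, against 6.44% and 3.41% of all genes. Among brighter genes, leaving out that array gave 31.4% at least 2-fold lower and 15.7% higher, against 50.7% and 2.90% of the 69 brighter members. At 4-fold it gave 1145 of the 7289 brighter genes lower, against 16 of the 69 members. By subunit, leaving out that array gave 23 lower and 2 higher in the large subunit and 12 lower and 0 higher in the small one. The count also depended on how a gene was read. With the floor at the 75th percentile 19 members were lower, with the first probe set by name 19, and with the median over the probe sets of a gene 20, where the median difference was -0.67. Scaling the arrays to their hybridization controls, which were brightest in granulocytes, gave 40 lower, 1 higher and a median of -1.45. That scaling moves all genes of an array alike. Shares of all genes under these other floors, probe set choices and scaling are not given here, so their counts have no background beside them.

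**Figure D2:**
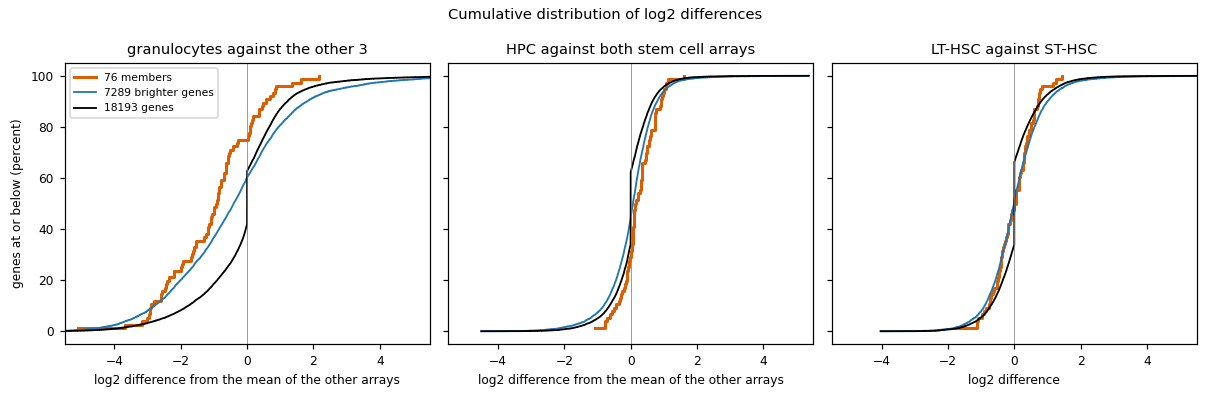
Cumulative percent of genes (y axis) at or below each log2 difference (x axis) for the 76 members, the 7289 brighter genes and all 18193 genes, in the 3 comparisons. In the granulocyte panel the line of the members lies above and to the left of both others over most of its range, with medians of -0.92 for members, -0.40 for brighter genes and 0.00 for all genes, whereas in the other panels the medians of members are 0.15 and 0.01.

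The large subunit proteins with a bacterial counterpart form the conserved core around the site of peptide bond formation and the exit tunnel. Of these 30 genes, 10 were lower and 1 higher in granulocytes, with a median of -1.03. Mrpl3, whose product reaches towards the catalytic site, had a signal of 369 in granulocytes, against 2890 in LT-HSC, 3129 in ST-HSC and 2368 in HPC, and was 6.42-fold lower than in the nearest of them. Mrpl22, which helps to line the exit tunnel, had 13.5 in granulocytes, under the floor, against 821 in LT-HSC, 980 in ST-HSC and 984 in HPC, and was at least 6.83-fold lower. Mrpl13 had 375 in granulocytes, against 2148 in LT-HSC, 2074 in ST-HSC and 1956 in HPC, which made it 5.22-fold lower. These 3 genes were nearly level over the stem and progenitor arrays and apart on the granulocyte array. All 4 probe sets of Mrpl13 pointed the same way, with log2 differences from -1.07 to -3.96.

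Mrpl35 had the largest difference in the large subunit as reported here, with 59.0 in granulocytes, under the floor, against 1506 in LT-HSC, 1005 in ST-HSC and 2403 in HPC, and was at least 8.37-fold lower. Its other 2 probe sets were dim, and one of them differed by 0.33 in the opposite direction. The log2 size of Mrpl35 was -3.07 as reported, -1.22 with a floor at the 75th percentile and 0.00 with the median over its probe sets. Mrpl21 had 54.6 in granulocytes, against 1008 in LT-HSC, 844 in ST-HSC and 1065 in HPC, at least 7.02-fold lower. It was the one member whose probe sets passed 2-fold in opposite directions in this comparison. A second probe set had 465 in granulocytes, against 214 in LT-HSC, 150 in ST-HSC and 117 in HPC, a log2 difference of 1.57 where the first had -3.01. Mrpl21 therefore has no settled direction here. Mrpl15, Mrpl47 and Mrpl42 were called lower too, at 2.09-fold, 2.29-fold and 3.47-fold, and had a dim probe set of opposite sign.

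Some members of the conserved core were as bright or brighter in granulocytes. Mrpl33, which encodes a small protein of the large subunit, had 2879 in granulocytes, against 401 in LT-HSC, 788 in ST-HSC and 819 in HPC, and was 3.52-fold higher. Its second probe set, at 284 in granulocytes against 91.1 in LT-HSC, 130 in ST-HSC and 83.9 in HPC, differed in the same direction, although HPC and LT-HSC lay under the floor. Mrpl23, whose product sits at the end of the exit tunnel, had 2561 in granulocytes, against 1628 in LT-HSC, 1105 in ST-HSC and 1620 in HPC, 1.57-fold higher than the nearest. Mrpl10, of the stalk to which translation factors bind, had 1232 in granulocytes, against 903 in LT-HSC, 405 in ST-HSC and 1205 in HPC. The granulocyte signal of Mrpl10 was 1.02-fold that of HPC, so only Mrpl33 among these 3 passed the 2-fold threshold.

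The large subunit members particular to mitochondria lie mostly on the outside of the particle. Of these 19 genes 8 were lower in granulocytes and 0 higher, with a median of -0.84. Mrpl39, whose product resembles a threonyl-tRNA synthetase, had 1232 in granulocytes, against 8296 in LT-HSC, 8719 in ST-HSC and 9052 in HPC, and was 6.74-fold lower. Its second probe set gave 582 in granulocytes, against 2676 in LT-HSC, 2645 in ST-HSC and 3220 in HPC. Both probe sets of Mrpl39 were above the floor on all arrays and had log2 differences of -2.82 and -2.28. Mrpl50 had 66.0 in granulocytes, against 598 in LT-HSC, 861 in ST-HSC and 750 in HPC, at least 4.98-fold lower.

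Mrpl41 and Mrpl57 were above the other arrays in granulocytes without passing the threshold. Mrpl41 had 2831 in granulocytes, against 1919 in LT-HSC, 706 in ST-HSC and 1028 in HPC, and a second bright probe set gave 2434, against 1600 in LT-HSC, 595 in ST-HSC and 936 in HPC. Its nearest array was LT-HSC, at 1.48-fold, and its signals also separated LT-HSC from ST-HSC. Mrpl57 had 4433 in granulocytes, against 2284 in LT-HSC, 2455 in ST-HSC and 3006 in HPC, which was 1.47-fold above the nearest.

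Of the 26 small subunit members 10 were lower in granulocytes and 0 higher, with a median of -0.85, close to the -0.99 of the 49 large subunit members, of which 18 were lower and 1 higher. Mrps6, a protein of the platform of the small subunit, had the largest difference of all members as reported here. Its signal was 72.5 in granulocytes, under the floor, against 5857 in LT-HSC, 2472 in ST-HSC and 4752 in HPC, at least 20.6-fold lower. A second probe set was also under the floor in granulocytes, at 20.6, against 577 in LT-HSC, 168 in ST-HSC and 434 in HPC. The first place rests on the brighter probe set, which has the suffix _s_, and on the floor. The log2 size of Mrps6 was -4.36 as reported, -0.48 with probe sets of that suffix left out and -2.52 with a floor at the 75th percentile, where Mrpl39 had -2.75. Mrps10, of the head of the subunit, had 116 in granulocytes, against 897 in LT-HSC, 906 in ST-HSC and 943 in HPC, and was at least 7.47-fold lower. Mrps22, which has no bacterial counterpart, had 356 in granulocytes, against 2656 in LT-HSC, 2088 in ST-HSC and 3249 in HPC, 5.87-fold lower. Mrps9 was 4.53-fold lower, and each of its 4 probe sets had a negative difference. Mrps5 was called lower at 2.49-fold, but another of its probe sets, with 368 in granulocytes against 279 in LT-HSC, 299 in ST-HSC and 171 in HPC, differed the other way.

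Mrps35, Mrps21 and Mrps11 were the small subunit members above each other array in granulocytes. Mrps35 had 669 in granulocytes, against 386 in LT-HSC, 443 in ST-HSC and 291 in HPC, or 1.51-fold the nearest. Mrps21 had 1768 in granulocytes, against 321 in LT-HSC, 498 in ST-HSC and 1210 in HPC, and its second, dim probe set had the opposite direction. Mrps11 had 250 in granulocytes, against 205 in LT-HSC, 239 in ST-HSC and 128 in HPC, 1.05-fold the nearest. None of the 3 passed 2-fold, and the Mrps11 signals were near the floor.

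The 3 Mrps18 genes descend from 1 ancestral protein, and their granulocyte signals differed in pattern. Mrps18a had 275 in granulocytes, against 518 in LT-HSC, 305 in ST-HSC and 505 in HPC. Mrps18b had 316 in granulocytes, against 791 in LT-HSC, 1052 in ST-HSC and 910 in HPC, and was 2.51-fold lower. Mrps18c had 633 in granulocytes, against 644 in LT-HSC, 381 in ST-HSC and 481 in HPC, within the range of the others. Of these paralogues, which occupy separate places in the ribosome, Mrps18b alone was called. Mrps36, the dehydrogenase adaptor, had 37.7 in granulocytes, against 399 in LT-HSC, 863 in ST-HSC and 742 in HPC, at least 3.32-fold lower. The remaining members called lower ran from 2.20-fold for Mrpl44 to at least 4.38-fold for Mrpl38.

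Probe sets of 1 gene often differed in size and at times in sign. Of 39 members with at least 2 probe sets above the floor on some array, 16 had one of opposite sign to the representative in the granulocyte comparison. Of the 19 of these that were called, 6 did: Mrpl15, Mrpl21, Mrpl35, Mrpl42, Mrpl47 and Mrps5. Of the 145 probe sets above the floor, counted without choosing 1 per gene, 42 were at least 2-fold lower in granulocytes and 3 higher. The share over all probe sets of the arrays is not given here. These 2 counts therefore have no background of their own and do not tell whether members stand apart. Among non-representative probe sets that reached 432 on some array, 25 of 29 had the sign of the representative, and among dimmer ones 26 of 40.

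**Figure D3:**
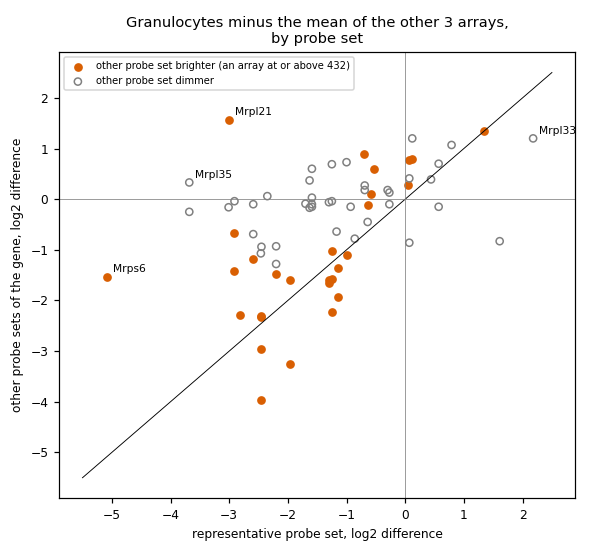
Log2 difference between granulocytes and the mean of the other 3 arrays for the representative probe set of a member (x axis) and for each of its 69 other probe sets above the floor on some array (y axis). Filled points are the 29 that reached a signal of 432, open points the 40 dimmer ones, and the line marks equal values. Filled points share the sign of the representative in 25 of 29 cases, with Mrpl21 at the top left as the largest exception, and open points gather nearer to 0.

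HPC, which divide more than stem cells, were compared with both stem cell arrays. Few members differed from both. Mrps21 and Mrpl47 were at least 2-fold higher in HPC than in each stem cell array and 0 members were lower, against backgrounds over all genes of 2.12% higher and 2.69% lower. The share of members called, 2.63% higher, was near the background. HPC were above both stem cell arrays for 34 members and below both for 16, against 4882 and 3280 of all 18193 genes. The median log2 difference of the members was 0.15, against 0.00 for all genes. Among the 7289 brighter genes 2642 were above both and 2095 below both, against 30 and 14 of the 69 brighter members. The median over those brighter genes was 0.07. Set against ST-HSC alone, 8 members (10.5%) were at least 2-fold higher in HPC and 1 lower, against 6.47% higher and 6.21% lower over all genes. Against LT-HSC alone 9 members (11.8%) were higher and 0 lower, against 5.32% and 6.80% over all genes. Against each stem cell array alone the share of members higher in HPC was thus above that of all genes, and 2 members passed against both. The margin was smaller at like brightness. Against LT-HSC alone 8.70% of the 69 brighter members and 7.79% of the brighter genes were higher in HPC. Against ST-HSC alone these shares were 11.6% and 9.52%. The highest of the 4 signals lay in granulocytes for 8 members (10.5%) and in HPC for 30 (39.5%), against 38.1% and 22.4% of the 14408 genes above the floor on some array. It lay in LT-HSC for 19 of the 76 members and in ST-HSC for 19, against 19.3% and 20.2% of those genes. Among the brighter genes 31.3% were highest in granulocytes and 24.8% in HPC.

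Mrps21 had 1210 in HPC, against 321 in LT-HSC and 498 in ST-HSC, and was 2.43-fold higher than the nearest. Its second probe set, at 200 in HPC against 218 in LT-HSC and 222 in ST-HSC, did not differ in that direction. Mrpl47, which binds near the exit of the tunnel, had 2158 in HPC, against 1040 in LT-HSC and 952 in ST-HSC, 2.07-fold higher. Mrpl36, at 1.98-fold, Mrps25, at 1.85-fold, and Mrpl35, at 1.60-fold, followed below the threshold. Mrps25 had 708 in HPC, against 303 in LT-HSC and 383 in ST-HSC, but another probe set gave 114 in HPC, against 198 in LT-HSC and 372 in ST-HSC. In the other direction Mrpl27, which reaches the catalytic site, had 341 in HPC, against 607 in LT-HSC and 847 in ST-HSC, 1.78-fold lower. Mrpl19, Mrps11, Mrpl52 and Mrpl24 were 1.70-fold, 1.60-fold, 1.40-fold and 1.39-fold lower. The second probe set of Mrps11 gave 367 in HPC, against 138 in LT-HSC and 34.9 in ST-HSC, opposite to the first.

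LT-HSC and ST-HSC, which differ in how long they can sustain blood formation, had nearly the same median member signal. Of the 76 members 3 were at least 2-fold higher in LT-HSC and 4 lower, against backgrounds of 7.28% and 5.41%. The median log2 difference was 0.01, with 38 members above and 38 below, against 6139 and 6155 of all 18193 genes. The members called higher in LT-HSC were Mrpl41, Mrps6 and Mrpl10. Mrpl41 had 1919 in LT-HSC, against 706 in ST-HSC, 2.72-fold higher, and its second bright probe set had 1600 in LT-HSC against 595 in ST-HSC. Mrps6 had 5857 in LT-HSC, against 2472 in ST-HSC, 2.37-fold higher, and its second probe set had 577 in LT-HSC against 168 in ST-HSC. Both genes were thus read the same way by 2 probe sets. Mrpl10 had 903 in LT-HSC, against 405 in ST-HSC, 2.23-fold higher, and Mrpl14 and Mrps18a were 1.80-fold and 1.70-fold higher.

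The members lower in LT-HSC were Mrps28, Mrpl16, Mrps36 and Mrps27, each with 1 probe set. Mrps28, of the small subunit, had 475 in LT-HSC, against 1620 in ST-HSC, 3.41-fold lower, the largest difference of a member between these arrays. Mrpl16, which contacts transfer RNA, had 2225 in LT-HSC, against 4847 in ST-HSC, 2.18-fold lower. Mrps36 had 399 in LT-HSC, against 863 in ST-HSC, 2.16-fold lower. Mrps27, an RNA-binding protein of the small subunit, had 123 in LT-HSC, close to the floor, against 265 in ST-HSC, 2.15-fold lower. Mrpl33 was 1.96-fold lower. The granulocyte signal also lay below ST-HSC for the first 4 of these and above it for Mrpl33. Among the members named as higher in LT-HSC, the granulocyte signal lay above ST-HSC for Mrpl41, Mrpl10 and Mrpl14. For Mrps6 and Mrps18a it lay below ST-HSC. The granulocyte markers present on the LT-HSC array and its 18S signal stand beside these values, and their part was not tested. Scaled to the hybridization controls, 4 members were higher and 1 lower, counts given without the share of all genes under that scaling.

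**Figure D4:**
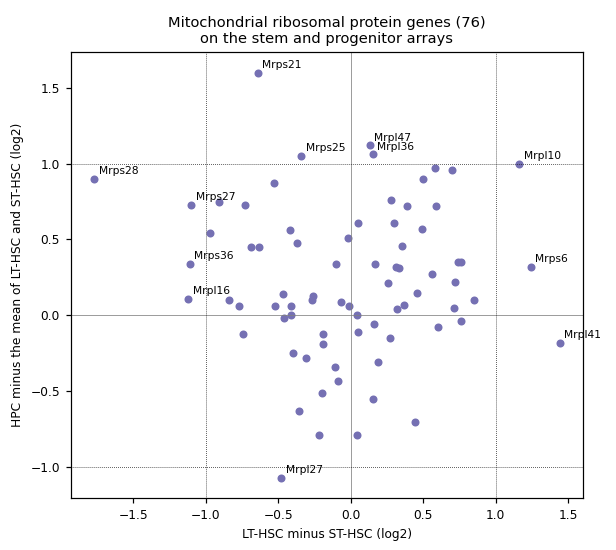
Log2 difference between LT-HSC and ST-HSC (x axis) and between HPC and the mean of LT-HSC and ST-HSC (y axis) for the 76 members, each point a gene. Dotted lines mark 2-fold, and genes at or past one of them are named. Most points lie inside the dotted square, around medians of 0.01 and 0.15, with Mrps28 far to the left, Mrpl41 far to the right and Mrps21 at the top.

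Other genes of mitochondrial gene expression were read from lists of the pathway. The background for each count that follows is the one above, 12.7% of all genes lower and 8.90% higher, or 28.3% and 13.7% of brighter genes. Of 4 measured mitochondrial ribosomal proteins with other symbols, 3 were at least 2-fold lower in granulocytes and 0 higher. Dap3, a GTP-binding protein of the small subunit, had 574 in granulocytes, against 1408 in LT-HSC, 2228 in ST-HSC and 1668 in HPC. Of 9 translation factors 5 were lower and 0 higher, with a median of -1.88. Tufm, the elongation factor that brings transfer RNA to the ribosome, had 20.8 in granulocytes, against 1652 in LT-HSC, 918 in ST-HSC and 2457 in HPC, at least 7.64-fold lower. Its probe set has the suffix _x_, so other transcripts may add to these signals. Gfm1, which moves the ribosome along, had 29.0 in granulocytes, against 668 in LT-HSC, 3079 in ST-HSC and 2540 in HPC. Mtif3, an initiation factor, was above each other array without passing 2-fold, with 778 in granulocytes, against 577 in LT-HSC, 729 in ST-HSC and 730 in HPC.

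Of 21 genes for ribosome assembly and ribosomal RNA 9 were lower in granulocytes and 2 higher, with a median of -1.15. Dhx30, an RNA helicase needed for assembly, had 126 in granulocytes, against 5306 in LT-HSC, 3424 in ST-HSC and 6496 in HPC, 27.2-fold lower. Its granulocyte signal was just above the floor and under the 138 of an absent bacterial control, so the size of this fold is uncertain. C1qbp, a matrix protein needed for mitochondrial translation, had 932 in granulocytes, against 16116 in LT-HSC, 25855 in ST-HSC and 24153 in HPC, 17.3-fold lower. The probe sets of Dhx30 and C1qbp have the suffix _x_, and other probe sets of these genes are not given here. The 2 higher genes were Rbfa, a maturation factor of the small subunit, with 11485 in granulocytes against 3072 in LT-HSC, 3030 in ST-HSC and 3872 in HPC, and Mpv17l2, with 284 in granulocytes against 40.6 to 78.4 on the other arrays. Of 8 genes for maintenance and transcription of mitochondrial DNA 4 were lower and 1 higher. Tfam, which packs that DNA, had 192 in granulocytes, against 1805 in LT-HSC, 2962 in ST-HSC and 1914 in HPC, 9.41-fold lower. Polg, its polymerase, was the higher one, with 2594 in granulocytes against 529 in LT-HSC, 677 in ST-HSC and 435 in HPC.

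Of 16 mitochondrial aminoacyl-tRNA synthetases 7 were lower in granulocytes and 0 higher, with a median of -0.67. Of 16 genes for import and chaperones 8 were lower and 0 higher, led by Hspa9, the import motor, at 548 in granulocytes against 15151 in LT-HSC, 12320 in ST-HSC and 16665 in HPC. Of 10 activators of mitochondrial genes 1 was lower and 1 higher. Pprc1, a coactivator related to Ppargc1a, had 10.8 in granulocytes, against 1022 in LT-HSC, 1642 in ST-HSC and 962 in HPC, and Esrra, a nuclear receptor, had 700 in granulocytes, against 150 in LT-HSC, 40.5 in ST-HSC and 106 in HPC. The subunits of oxidative phosphorylation, taken by symbol, which include the partners of the proteins made on this ribosome, had a median of -0.18 over 83 genes, with 12 lower and 3 higher. The 48 cytosolic ribosomal proteins, also taken by symbol, had a median of -1.22, with 25 lower and 1 higher. The median of the members thus lay between those of these sets in the granulocyte comparison, a description for which no test was made. Without the LT-HSC array the count lower was 11 of 21 for assembly, 16 of 83 for oxidative phosphorylation and 28 of 48 for cytosolic ribosomal proteins, and it was the same as with that array for the other 6 lists.

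**Figure D5:**
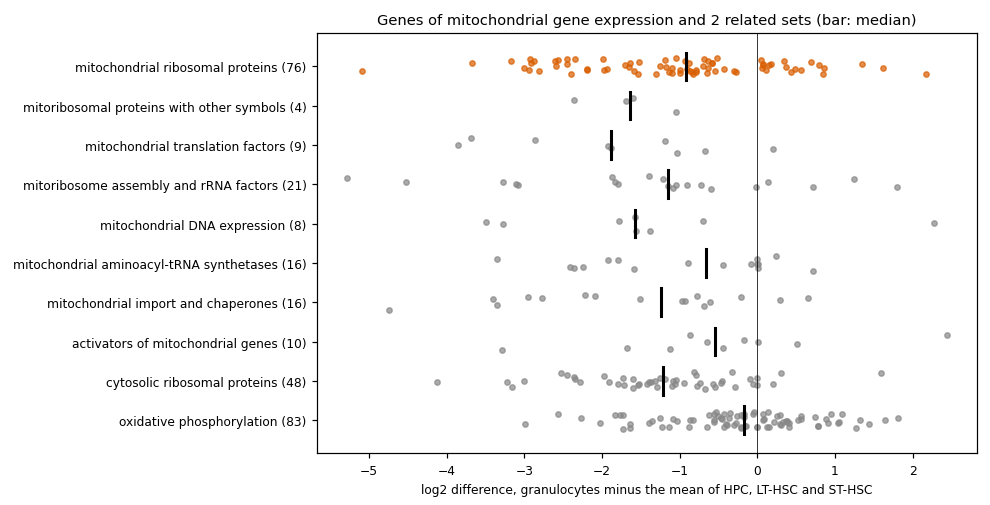
Log2 difference between granulocytes and the mean of HPC, LT-HSC and ST-HSC (x axis) for each gene of the members, of 7 lists of mitochondrial gene expression and of 2 related sets (rows, with the number of genes measured). Points are genes and bars medians, which are -0.92 for the members, -1.88 for translation factors, -1.22 for cytosolic ribosomal proteins and -0.18 for oxidative phosphorylation. All rows have genes on both sides of 0 except the ribosomal proteins with other symbols.

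The promoters of the members were examined because NRF1, GABP and YY1 are known activators of nuclear genes for mitochondria. RefSeq windows of 300 bases, from 250 before to 50 after the start, were found for 67 members in the assembly GRCm38.p6. Each motif was searched on both strands. The NRF1 motif occurred in 17.9% of member windows and 4.8% of all 27025 windows, the ETS motif CCGGAAG bound by GABP in 35.8% and 9.1%, and the YY1 motif AANATGGCG in 16.4% and 2.5%. At least 1 of the 3 was found in 39 of 67 member windows, or 58.2%, against 14.7% of all windows and 34.5% of windows of the brighter measured genes. The 3 motifs do not contain one another. Among the brighter genes the shares were 12.1% for NRF1, 20.6% for ETS and 6.6% for YY1. Member windows had a median GC content of 58.3% and 21 CpG, against 52.7% and 7 in all windows and 61.7% and 22 in those of brighter genes. Of the other motifs searched, CCAAT occurred in 38.8% of members, 37.9% of all windows and 38.3% of those of brighter genes, and CACGTG in 7.5%, 7.2% and 11.2%. GGGCGG occurred in 50.7% of members, above the 35.9% of all windows and below the 67.8% of brighter genes. TATAAA occurred in 6.0% of members, below the 14.2% of all windows and near the 6.8% of brighter genes. Members called lower in granulocytes held 1 of the 3 motifs in 12 of 25 windows (48.0%), and the other members in 27 of 42 (64.3%). A match is a run of letters and not a bound site.

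The 6 windows printed here are shown because they belong to members named above, lower and higher in granulocytes, and hold each motif; capitals mark the motifs. Mrpl39, at chr16:84735195-84735494 on the minus strand, has an NRF1 match 125 bases before the start. Mrps22, at chr9:98601630-98601929 on the minus strand, has an ETS match 11 bases before it. Mrpl35, at chr6:71823735-71824034 on the minus strand, has a YY1 match after the start. Mrpl33, at chr5:31613701-31614000 on the plus strand, has an ETS match 3 bases before the start. Mrps21, at chr3:95871465-95871764 on the minus strand, has an NRF1 match 91 bases before the start and an ETS match after it. Mrps11, at chr7:78782881-78783180 on the plus strand, has a YY1 match 108 bases before the start.
Mrpl39: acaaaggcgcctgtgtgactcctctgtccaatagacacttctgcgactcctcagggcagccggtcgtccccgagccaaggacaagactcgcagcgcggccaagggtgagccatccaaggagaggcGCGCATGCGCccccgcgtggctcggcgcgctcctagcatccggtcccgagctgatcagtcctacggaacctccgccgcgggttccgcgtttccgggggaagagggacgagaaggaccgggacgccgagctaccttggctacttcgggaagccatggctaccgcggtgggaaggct
Mrps22: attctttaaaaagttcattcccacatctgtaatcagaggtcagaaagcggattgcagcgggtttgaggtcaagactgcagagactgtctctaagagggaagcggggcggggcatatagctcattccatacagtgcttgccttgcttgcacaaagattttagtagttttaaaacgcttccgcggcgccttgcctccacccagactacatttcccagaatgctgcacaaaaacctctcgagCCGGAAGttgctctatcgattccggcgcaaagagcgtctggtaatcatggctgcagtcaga
Mrpl35: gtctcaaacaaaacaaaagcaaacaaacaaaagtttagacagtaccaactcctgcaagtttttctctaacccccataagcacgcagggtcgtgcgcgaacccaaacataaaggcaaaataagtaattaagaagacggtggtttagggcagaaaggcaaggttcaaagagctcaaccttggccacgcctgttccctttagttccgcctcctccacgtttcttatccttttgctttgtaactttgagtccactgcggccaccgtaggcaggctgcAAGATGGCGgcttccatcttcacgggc
Mrpl33: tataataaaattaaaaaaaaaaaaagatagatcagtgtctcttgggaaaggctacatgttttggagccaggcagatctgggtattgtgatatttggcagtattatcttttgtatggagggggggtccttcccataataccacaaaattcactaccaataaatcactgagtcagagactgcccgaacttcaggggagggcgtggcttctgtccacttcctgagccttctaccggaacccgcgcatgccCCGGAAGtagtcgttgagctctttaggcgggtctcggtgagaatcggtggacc
Mrps21: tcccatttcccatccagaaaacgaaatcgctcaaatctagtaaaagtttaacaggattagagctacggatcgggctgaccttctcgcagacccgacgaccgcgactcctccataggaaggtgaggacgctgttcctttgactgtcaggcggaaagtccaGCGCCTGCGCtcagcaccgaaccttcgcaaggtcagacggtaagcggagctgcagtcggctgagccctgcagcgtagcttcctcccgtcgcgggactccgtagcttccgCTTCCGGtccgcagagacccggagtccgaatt
Mrps11: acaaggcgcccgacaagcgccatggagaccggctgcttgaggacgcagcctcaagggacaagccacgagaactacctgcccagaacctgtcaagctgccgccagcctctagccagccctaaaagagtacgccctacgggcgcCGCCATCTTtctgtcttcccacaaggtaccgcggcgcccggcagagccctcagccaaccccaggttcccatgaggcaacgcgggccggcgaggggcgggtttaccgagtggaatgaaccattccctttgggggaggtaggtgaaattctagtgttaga

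The windows were chosen to cover both directions, so they cannot tell whether a motif goes with the direction of a gene. Among them the ETS motif stood close to the start in Mrps22, which was 5.87-fold lower in granulocytes, and in Mrpl33, which was 3.52-fold higher. The NRF1 motif stood in Mrpl39, 6.74-fold lower, and in Mrps21, 1.46-fold higher. The start of another gene lay upstream on the other strand within 1000 bases for 35.8% of member windows, against 11.1% of all windows and 18.6% of those of brighter genes. Mrps11 and Mrpl46 are such a pair within the group, with starts 40 bases apart, so the Mrps11 window above also holds the start of Mrpl46. Their signals differed in pattern: Mrpl46 had 468 in granulocytes, against 1540 in LT-HSC, 2119 in ST-HSC and 1784 in HPC, whereas Mrps11 had 250, against 205 in LT-HSC, 239 in ST-HSC and 128 in HPC. The log2 differences between granulocytes and the mean of the other arrays were -1.94 for Mrpl46 and 0.44 for Mrps11.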

How the data were processed

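Per the labels' protocols, total RNA was amplified and coupled to biotin before hybridisation. The authors deposited linear intensity, 1 value per probe set, and their summary software is not given in the sources used here. Amplification from few cells favours the 3′ end of transcripts and adds noise that differs between arrays. Of 45101 probe sets 64 controls were left out. GEO's platform annotation, which can be old, gave 1 symbol for 34945, several for 932 and none for 9160.

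Values were used as deposited, set to the floor where lower, and converted to log2. As its size a gene got the smallest log2 difference from the arrays compared, or 0 where signs differed. Folds with a side at the floor are bounds, written at least N-fold. Genes chosen for description were the 10 largest in each direction for granulocytes (8 in the higher direction), the 5 largest for the other comparisons and the Mrps18 genes. Some of them are given by fold alone. Of members whose probe sets disagree in the granulocyte comparison, those called are named, and most of those not called are only counted. Members, lists and motifs were chosen with earlier results of these data known, and the promoters printed were chosen after their values were seen. The procedure was run on simulated data with large changes planted in genes well above the floor. That run does not tell how reliable the 2-fold calls on these arrays are. There were 13 alternatives, 12 planned and 1 added after seeing the data. The number of arrays limits precision. Figures were drawn with matplotlib 3.10.9, and values computed with pandas 2.3.3, numpy 2.4.6 and scipy 1.17.1 under Python 3.11.15. Promoter sequences are from RefSeq (GRCm38.p6), and 9 members had no window.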

Additional observations from a re-analysis of the deposited data

How the results depend on the processing

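The median granulocyte difference of the members stayed negative under each alternative run. It ran from -0.67 with the median over probe sets to -1.45 with scaling to the hybridization controls. That scaling multiplies each array by 1 factor, so its shift is not particular to the members. The median of all genes was -0.08 under it, a median that includes many genes with signals under the floor. The count lower in granulocytes ran from 19 to 40, against 29. It was 19 with a floor at the 75th percentile and 19 with the first probe set by name, and the count higher, 1 as reported, was 2 with the first probe set by name, 3 at 1.5-fold, 3 against the mean of the other arrays and 2 without the LT-HSC array. For HPC the count higher, 2 as reported, was 1 with the median over probe sets, 4 with hybridization control scaling, 10 at 1.5-fold, 4 against the mean and 8 without LT-HSC. The count lower, 0 as reported, was 1 without _x_ and _s_ probe sets, 3 at 1.5-fold, 1 against the mean and 1 without LT-HSC. For LT-HSC against ST-HSC the count lower, 4 as reported, was 7 with the median over probe sets, 1 with hybridization control scaling and 13 at 1.5-fold, and the count higher, 3 as reported, was 12 at 1.5-fold. A looser or stricter threshold moves such counts by construction, and otherwise the cause was not tested. For the counts in this paragraph, the share of all genes under the same alternative is given above only where the LT-HSC array was left out. The log2 size of Mrpl21 reversed to 1.12 with the first probe set by name, which is another probe set. Of 403 values for 38 single-gene results, 350 moved by less than the spread between probe sets, 52 by more and 1 reversed. No paired analysis was possible because each cell type has 1 array and no test was made. Signals under the floor limit 10 granulocyte differences to a lower bound.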

Other observations

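A few probe sets carry a mitochondrial ribosomal protein symbol together with a second symbol and entered no comparison. The brighter probe set of Mrpl30, shared with Gm6238, had 1098 in granulocytes, against 2194 in LT-HSC, 2292 in ST-HSC and 2759 in HPC. That of Mrpl53, shared with Ccdc142, had 1223 in granulocytes, against 618 in LT-HSC, 765 in ST-HSC and 820 in HPC. A probe set shared by Nme3 and Mrps34 had 560 in granulocytes, against 195 in LT-HSC, 436 in ST-HSC and 282 in HPC, whereas the probe set of Mrps34 alone had 1332 in granulocytes, against 1319 in LT-HSC, 1065 in ST-HSC and 1478 in HPC.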
